A study of Homo sapiens with 12 samples.

Results

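Retinoic acid is made inside the cell from vitamin A. Retinol is first oxidised to retinal, and the retinaldehyde dehydrogenases ALDH1A1, ALDH1A2 and ALDH1A3 then oxidise retinal irreversibly to retinoic acid. CRABP1 is a cytosolic protein that binds retinoic acid. The receptors RARA, RARB and RARG bind it in the nucleus as heterodimers with a retinoid X receptor such as RXRA or RXRG, on DNA elements made of a repeated half-site. RARB is itself a target of this signalling through such an element in its promoter, and methylation of that promoter is well known in epithelial cancers. In the urothelium, retinoids are known for keeping the epithelium from squamous change.

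The 9 genes named above were described for 2 DNA marks, 5-methylcytosine (5mC) and 5-hydroxymethylcytosine (5hmC). The members were all CpGs of the deposited tables within each gene's span on the hg38 build plus 1500 bp on either side. They came to 2579 of 3689712 CpGs in the 5mC table and 2526 of 3534314 CpGs in the 5hmC table. The cells were SV-HUC-1, a line of human urothelial epithelial cells immortalised with SV40, and all groups share that immortalised background. One condition had received DCBQ (2,6-Dichloro-1,4-benzoquinone, a chlorinated by-product of drinking water disinfection) and the other, called Control, a blank solution, each for 3 days. The 12 libraries were 3 DCBQ and 3 Control libraries of reduced representation bisulfite sequencing (RRBS), which enriches CpG-rich DNA, and 3 DCBQ and 3 Control libraries of its oxidative form, in which 5hmC is oxidised first so that 5mC alone is read as methylated. Each table gave 1 value per CpG for DCBQ1 to DCBQ3 and Control1 to Control3.

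The depth behind each value is unknown, since the tables list fractions only, so counting intervals cannot be given. Nothing in the labels ties the samples of a condition to separate cultures. The p-values therefore reflect only how far these samples spread, and that spread may be technical. Over all CpGs of the 5mC table the DCBQ samples lay between 54.1% and 54.2% and the Control samples between 54.4% and 54.7%, with no overlap. Over all CpGs of the 5hmC table they lay between 3.34% and 3.62% in DCBQ and 3.31% and 3.44% in Control. The correlation between samples across 1 kb tiles was 0.988 to 0.989 for 5mC and 0.376 to 0.409 for 5hmC, whose levels span a much narrower range. Of the member 5hmC values, 53.0% were exactly 0. The sources used here do not say how the 2 tables were derived from the libraries. The 2 levels of a member CpG in 1 sample summed to over 100%, by more than 0.1 point, in 349 of 15144 cases. The marks of a sample may rest on the same libraries, so opposite differences in 5mC and 5hmC at one place are not independent measurements. The cell type could be looked at only through few markers. Of 9 epithelial genes 2 had enough CpGs at their starts, with GATA3 and KRT5 between 2.15% and 54.5% 5mC, and of 7 leukocyte and endothelial genes 1 had, CD3D. It read 80.7%, 74.3% and 77.1% 5mC in the DCBQ samples, against 83.4%, 85.8% and 83.2% in the Control samples, apart by -6.74 points, and its part in the results was not tested. None of 5 fibroblast markers had enough CpGs at its start.

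Because bisulfite reads CpGs, the sequence before a start shows how much of it the data see. The 250 bases before the start listed first for each gene were taken from RefSeq (GRCh38.p14), and all 9 genes were matched. The stretches of 5 genes whose starts are described below are shown. The ALDH1A3 CpGs 1469 to 1357 bp before the start and the RXRA body, described below for their differences, lie outside the printed bases. The printed stretches are written 5′ to 3′ on the strand of the gene, and capitals mark the CpGs measured in the 5mC table, whether or not they differed. RXRG lies on the minus strand at chr1:165445127-165445376, and 5 of its 24 CpGs were measured. RARB lies on the plus strand at chr3:25428013-25428262, with 5 of 7 measured. ALDH1A3 lies on the plus strand at chr15:100879581-100879830, with 24 of 38 measured. CRABP1 lies on the plus strand at chr15:78340103-78340352, with 8 of 18 measured. RXRA lies on the plus strand at chr9:134326205-134326454, with 59 of 59 measured.
RXRG promoter: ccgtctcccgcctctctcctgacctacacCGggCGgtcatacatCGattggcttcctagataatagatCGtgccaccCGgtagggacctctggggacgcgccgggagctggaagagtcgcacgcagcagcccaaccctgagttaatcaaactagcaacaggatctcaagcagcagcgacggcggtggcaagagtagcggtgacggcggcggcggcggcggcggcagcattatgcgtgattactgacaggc
RARB promoter: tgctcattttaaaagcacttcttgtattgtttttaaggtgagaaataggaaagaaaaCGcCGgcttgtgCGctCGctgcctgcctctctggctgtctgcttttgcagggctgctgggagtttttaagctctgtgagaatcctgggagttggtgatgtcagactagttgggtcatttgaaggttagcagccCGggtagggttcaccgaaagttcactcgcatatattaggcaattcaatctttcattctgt
ALDH1A3 promoter: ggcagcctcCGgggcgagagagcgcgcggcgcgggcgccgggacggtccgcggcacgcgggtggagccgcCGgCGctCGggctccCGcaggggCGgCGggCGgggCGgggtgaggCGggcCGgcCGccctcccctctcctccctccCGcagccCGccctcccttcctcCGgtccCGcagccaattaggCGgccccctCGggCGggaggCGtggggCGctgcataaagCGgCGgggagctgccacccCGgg
CRABP1 promoter: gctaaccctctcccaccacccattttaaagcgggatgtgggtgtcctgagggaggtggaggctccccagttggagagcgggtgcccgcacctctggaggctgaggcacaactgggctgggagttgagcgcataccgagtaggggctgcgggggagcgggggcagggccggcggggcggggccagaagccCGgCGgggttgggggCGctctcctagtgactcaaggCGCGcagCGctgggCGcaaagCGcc
RXRA promoter: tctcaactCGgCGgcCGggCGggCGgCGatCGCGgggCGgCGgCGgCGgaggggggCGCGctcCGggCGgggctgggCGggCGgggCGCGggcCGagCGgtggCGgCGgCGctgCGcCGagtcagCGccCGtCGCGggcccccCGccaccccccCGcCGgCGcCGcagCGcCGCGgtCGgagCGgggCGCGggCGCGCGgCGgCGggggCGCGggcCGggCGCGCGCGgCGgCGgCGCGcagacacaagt
The retinoic acid response element of RARB lies 53 to 37 bp before this start, at chr3:25428210-25428226 on the plus strand. It is printed with its half-sites in capitals.
RARB element: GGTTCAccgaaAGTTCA
The half-sites GGTTCA and AGTTCA, in this order and 5 bases apart, were searched on both strands of all 35116 RefSeq windows of 250 bases before to 50 after a start. They were present in 6 windows (0.0171%), and RARB's was the only one of 16 windows of the member genes to hold them. The repeat of AGGTCA with the same spacing was present in 2 windows (0.0057%) and in none of the member genes. The single half-site AGGTCA was present in 4857 windows (13.8%), among them windows of RARA, RARB and RXRG. A match is a description of the letters. The CpG inside the RARB element was not measured in these tables, and the nearest measured one lay 60 bp before the start.

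For each gene, the start window ran from 1500 bp before to 500 bp after the start, and the body from there to the other end of the gene. A window or body was tested with at least 5 CpGs, using limma on its mean percentage with Benjamini-Hochberg adjustment over all protein-coding genes, and 1 kb tiles and single CpGs were tested in the same way over the whole table. No member passed an adjusted p of 0.05 in any of these tests. Of 12199 start windows tested for 5mC, limma called 0 (0%), and 815 (6.68%) had an unadjusted p under 0.05. Of the 7 member windows tested, 2 did, those of RXRG and ALDH1A3. For the 13141 bodies limma called 0 (0%) for 5mC, and 1092 (8.31%) had an unadjusted p under 0.05, among them 2 of 8 member bodies, RXRA and ALDH1A2. For 5hmC it called 0 (0%) of 12120 start windows and 0 (0%) of 13039 bodies. An unadjusted p under 0.05 was found for 584 (4.82%) of these windows and 698 (5.35%) of these bodies, with no member gene among either. The median difference, DCBQ minus Control, over the tested member start windows was 0.498 points of 5mC, against -0.0899 points over all tested windows. Over the tested member bodies it was -0.613 points of 5mC, against -0.392 points over all tested bodies. For 5hmC the member medians were 0.0287 points at starts and 0.303 points in bodies, against 0.0282 and 0.0882 points over all tested.

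Groups were called apart where all 3 DCBQ samples lay on one side of all 3 Control samples. At starts, 5mC was apart in 2 of 7 member genes, against 12% of all start windows, and 5hmC in 1 of 7, against 9.76%. In bodies, 5mC was apart in 2 of 8 member genes, against 15.7% of all bodies, and 5hmC in 1 of 8, against 9.89%. Averaged over all member CpGs, 5mC was 51.0%, 51.0% and 50.9% in the DCBQ samples, against 51.6%, 51.5% and 51.4% in the Control samples. The difference was -0.539 points. RXRA, with 1311 of the 2579 CpGs, differed by -0.969 points over its whole span. The 1268 CpGs of the other 8 genes read 35.5%, 35.5% and 35.4% in DCBQ, against 35.7%, 35.6% and 35.5% in Control, with overlap and a difference of -0.0945 points. Over all CpGs of the table the difference was -0.416 points. The mean 5hmC was 3.13%, 3.25% and 3.34% in the DCBQ samples, against 2.99%, 2.99% and 2.92% in the Control samples. With RXRA included the samples were apart in both marks, lower in DCBQ for 5mC and higher for 5hmC. Without RXRA the 5hmC was still apart, with 3.41%, 3.37% and 3.45% in DCBQ, against 3.14%, 3.23% and 3.19% in Control. Each member's own levels are in the plot of start windows and bodies by sample.

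**Figure D1:**
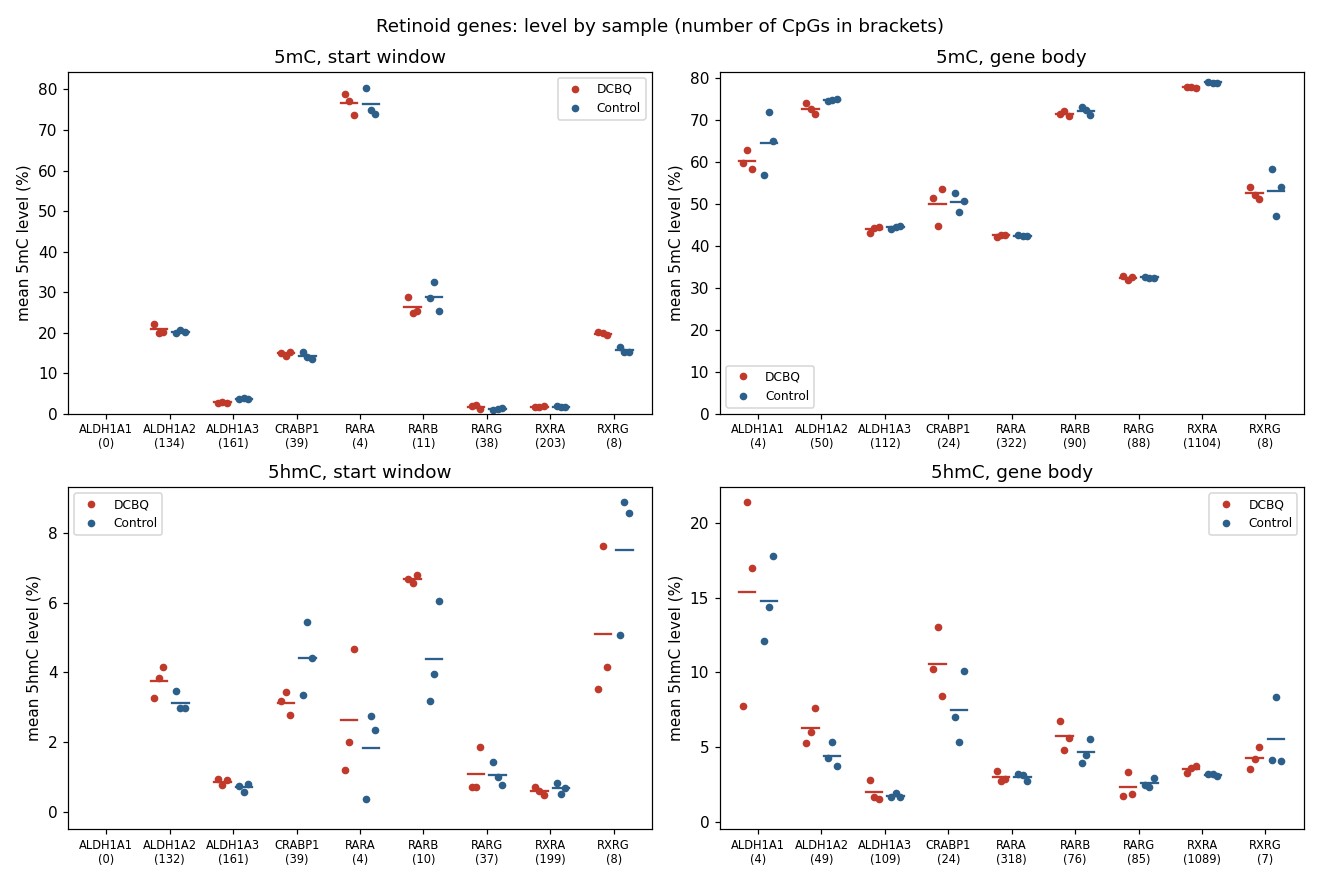
Mean 5mC and 5hmC level (%) of each gene's start window and body in 3 DCBQ and 3 Control samples; points are samples, lines are group means, and the number of CpGs is in brackets. RXRG and ALDH1A3 have separate groups for 5mC at the start (19.8% against 15.7%, and 2.79% against 3.76%), and the 5hmC samples of most genes overlap.

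Among the enzymes, ALDH1A1 was barely covered. Its start window held 0 measured CpGs, and none of the 6 CpGs in the 250 bases before its start was measured. Its body held 4 CpGs, too few to test, with 59.8%, 62.9% and 58.2% 5mC in the DCBQ samples, against 56.9%, 71.8% and 64.9% in the Control samples. Those groups overlapped, although the CpG at chr9 position 72919001 read 70%, 62.5% and 42.9% in DCBQ, against 76.9%, 100% and 87.5% in Control.

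ALDH1A2, the enzyme that makes most retinoic acid in the early vertebrate embryo, had a sharp step in 5mC at its start. The 83 CpGs before the start read 3.05%, 2.69% and 3.41% 5mC in the DCBQ samples, against 2.33%, 3.06% and 2.91% in the Control samples. The 51 CpGs after it read 53.3%, 48.0% and 47.8% in DCBQ, against 48.7%, 49.6% and 48.2% in Control. Both groups had the step, and within each stretch they overlapped. The whole window of 134 CpGs differed by 0.498 points (SE 0.711, limma adjusted p = 0.947). The CpG 122 bp after the start, at chr15 position 58065588, read 35%, 31.6% and 38.5% in DCBQ, against 16.1%, 20.8% and 15.8% in Control. It had the smallest p among member CpGs with more 5mC in DCBQ whose groups were apart and whose means differed by at least 10 points. Its difference of 17.5 points (SE 3.70) had a limma adjusted p of 0.889. The mean of the 28 CpGs within 250 bp after the start was higher in every DCBQ sample, at 42.7% in DCBQ and 38.7% in Control. The 23 CpGs after them averaged 58.2% in DCBQ and 61.2% in Control and overlapped. Of the 51 CpGs after the start, 7 were apart one by one, in both directions. How often such 250 bp stretches are apart over all genes was not computed.

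The body of ALDH1A2, with 50 CpGs, read 74.0%, 72.5% and 71.3% 5mC in the DCBQ samples, against 74.5%, 74.8% and 75.1% in the Control samples. All DCBQ samples lay below all Control samples, by -2.13 points in the mean (SE 0.771, limma adjusted p = 0.583). Its 5hmC was 5.27%, 5.99% and 7.58% in DCBQ, against 4.24%, 5.32% and 3.69% in Control, and there the groups overlapped. A single body CpG at chr15 position 57967420 stood out in both marks. Its 5hmC was 30%, 23.1% and 67.5% in DCBQ, against 0% in each Control sample (difference 40.2 points, SE 14.9, limma adjusted p = 0.781). Its 5mC was 70%, 62.5% and 20% in DCBQ, against 88.2%, 100% and 86.7% in Control. In the start window, the CpG at position 58065446 read 16.7%, 46.7% and 8.33% 5hmC in DCBQ, against 3.13%, 0% and 0% in Control.

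ALDH1A3, a retinaldehyde dehydrogenase that epithelia express, had an almost unmethylated start and a block of methylated CpGs far upstream. The block carried most of the difference of the window. The window of 161 CpGs read 2.74%, 2.89% and 2.76% 5mC in the DCBQ samples, against 3.75%, 3.79% and 3.73% in the Control samples. The groups were apart by -0.961 points (SE 0.186, limma adjusted p = 0.439). The 7 CpGs that lay 1469 to 1357 bp before the start read 44.1%, 45.0% and 42.8% in DCBQ, against 60.3%, 60.9% and 61.7% in Control. Their mean difference was -17.0 points, and at 7 of 7 CpGs every DCBQ sample was below every Control sample. They lie within 114 bp at chr15:100878362-100878474, close enough to share reads, and are not independent of each other. The other 154 CpGs of the window averaged 0.925% in DCBQ and 1.16% in Control, a difference of -0.23 points. There too every DCBQ sample was below every Control sample, at levels near 0. With the window narrowed to 500 bp on each side, the difference was -0.203 points (limma adjusted p = 0.907).

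The 1 kb tile that holds the block, chr15:100878001-100879000, had 9 measured CpGs, of which 7 fall within the window. It read 39.4%, 39.1% and 37.6% 5mC in the DCBQ samples, against 51.1%, 53.8% and 56.1% in the Control samples. At -15.0 points (SE 2.04, limma adjusted p = 0.706) it had the smallest p of the member tiles. Within the block, the CpG 1357 bp before the start read 40%, 30% and 36.1% in DCBQ, against 70.3%, 58.3% and 62.5% in Control. The CpG 1381 bp before the start read 17.1%, 20.3% and 18.8% in DCBQ, against 36%, 30.2% and 32.2% in Control. The 5hmC of the 7 CpGs was 8.03%, 4.79% and 3.83% in DCBQ, against 3.56%, 1.65% and 1.79% in Control, apart in the other direction and smaller in size. In the body of ALDH1A3 the groups overlapped for both marks. Its 112 CpGs averaged 44.0% ± 0.878 5mC in DCBQ and 44.4% ± 0.37 in Control (SD, n = 3 each). Of all 275 CpGs of ALDH1A3 in the 5mC table, start window and flanks included, 90 also lie in the span of another gene, LOC124903575.

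**Figure D2:**
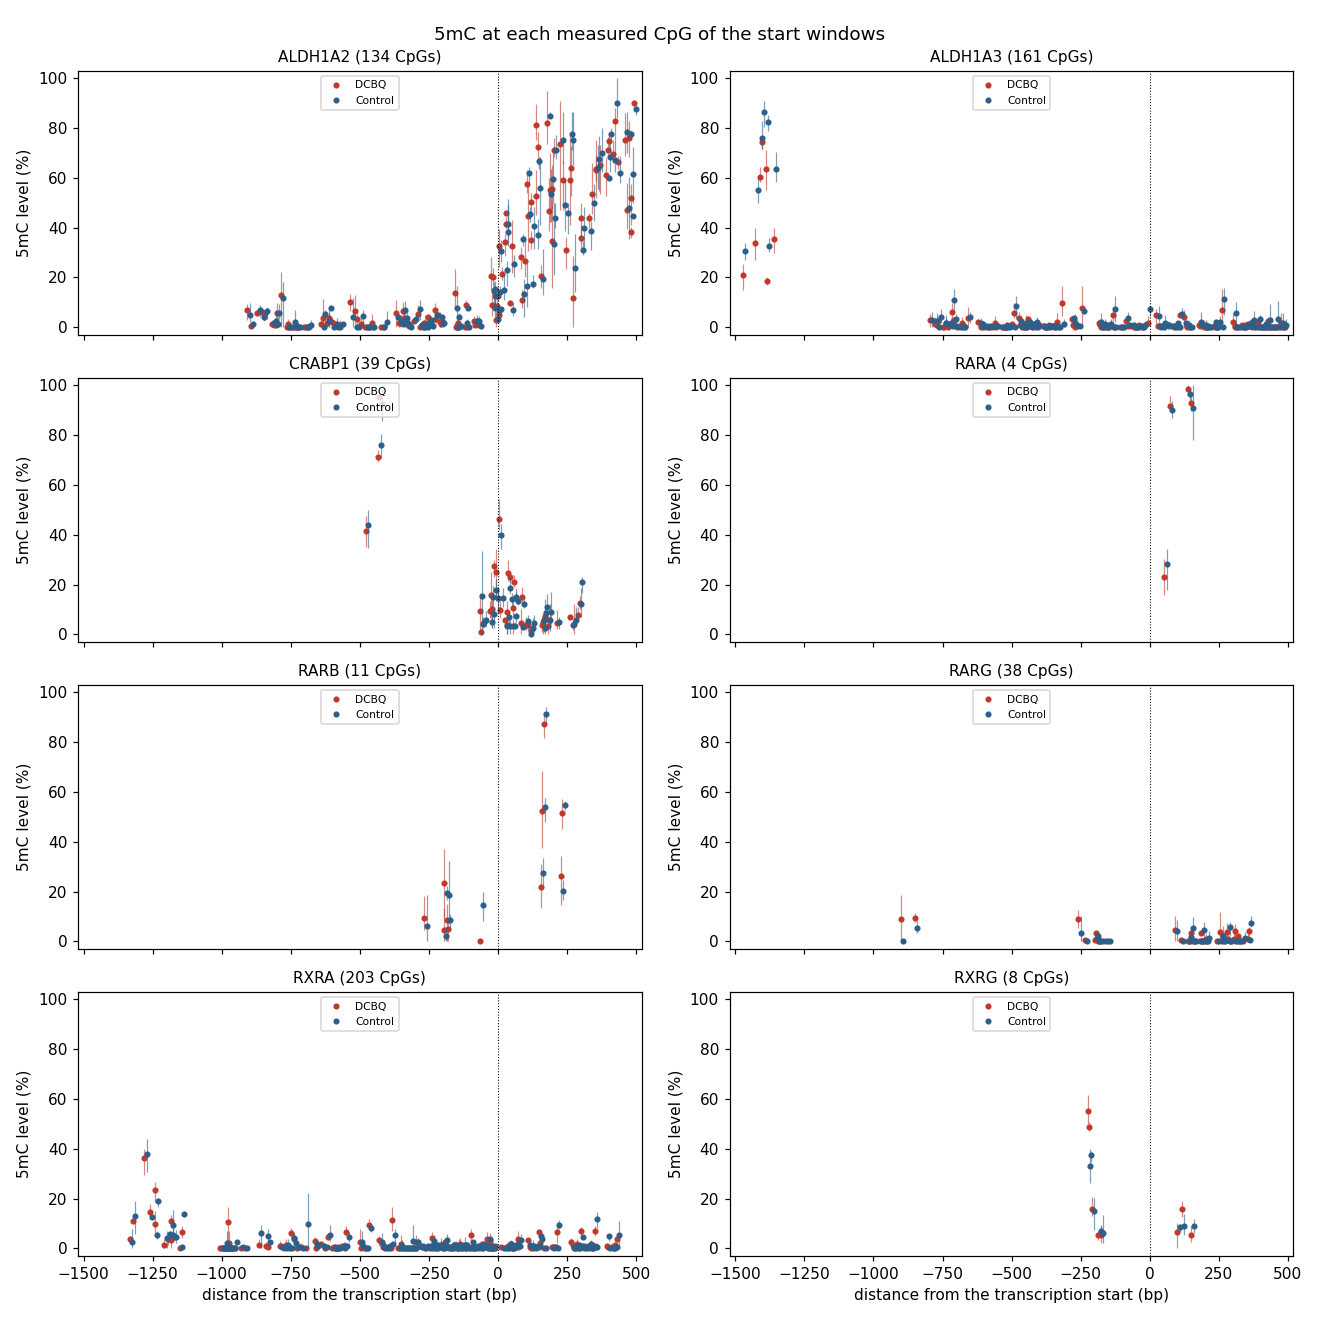
5mC level (%) of each measured CpG against its distance from the transcription start (bp) for 8 genes; dots are the means of 3 DCBQ and 3 Control samples and lines run from the lowest to the highest sample. ALDH1A2 steps up at the start in both groups, RXRA, RARG and ALDH1A3 stay near 0% around it, and the 4 CpGs of RARA average 76.7% in DCBQ and 76.4% in Control.

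CRABP1, the cytosolic carrier, was lightly methylated at its start and differed little in 5mC. The 39 CpGs of the window read 15.0%, 14.4% and 15.2% in the DCBQ samples, against 15.1%, 13.99% and 13.6% in the Control samples, and overlapped (difference 0.626 points, SE 0.533, limma adjusted p = 0.897). The 3 CpGs 474 to 425 bp before the start averaged 69.4% in DCBQ and 70.8% in Control, whereas the 32 within 250 bp of it averaged 10.6% in DCBQ and 9.39% in Control. The mean 5hmC of those 32 CpGs was lower in every DCBQ sample, with 2.14%, 2.84% and 2.35%, against 3.24%, 5.06% and 4.88% in the Control samples. One by one, the groups were apart in 5hmC at 1 of the 32. Over the whole window, however, the 5hmC of the groups overlapped (difference -1.28 points, SE 0.834, limma adjusted p = 0.954). The body of 24 CpGs averaged 49.8% ± 4.52 5mC in DCBQ and 50.5% ± 2.24 in Control (SD, n = 3 each), and leaving out 1 sample at a time moved its difference between -2.40 and 1.92 points.

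Among the receptors, RARA was mostly methylated just after its first listed start and not around the next. The 11 CpGs in the 250 bases before its first listed start were not measured. The 4 CpGs measured in the window lay 57 to 154 bp after the start. They read 78.9%, 77.2% and 73.8% 5mC in the DCBQ samples, against 80.4%, 74.8% and 74.0% in the Control samples. The nearest to the start, at 57 bp, averaged 23.2% in DCBQ and 28.4% in Control, and those after it read far higher. Around the second start, the 53 CpGs of a window of the same size read 1.23%, 1.99% and 1.94% in DCBQ, against 1.49%, 1.75% and 1.496% in Control. Around the third, 107 CpGs read 13.3%, 13.9% and 13.8% in DCBQ, against 12.3%, 13.1% and 13.1% in Control, with every DCBQ sample above every Control sample. These later windows lie inside the body, whose 322 CpGs differed by 0.0286 points (SE 0.357, limma adjusted p = 0.985).

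The tile over the second start of RARA, chr17:40318001-40319000, had 27 CpGs with 1.26%, 1.18% and 0.834% 5hmC in the DCBQ samples, against 0.269%, 0.287% and 0.592% in the Control samples (difference 0.709 points, SE 0.252, limma adjusted p = 0.974). Its groups were apart at levels near 0. The tile chr17:40316001-40317000 read 1.58%, 1.73% and 1.74% 5mC in DCBQ, against 1.23%, 1.31% and 1.21% in Control (difference 0.435 points, limma adjusted p = 0.85). Neighbouring body CpGs of RARA, named separately for each direction, differed in opposite directions. At position 40336683 5hmC was 4.44%, 13.2% and 17.6% in DCBQ, against 0% in each Control sample, and at position 40336738 it was 0%, 1.82% and 0% in DCBQ, against 20.6%, 19.0% and 11.5% in Control. The CpG at position 40342662 read 94.3%, 100% and 100% 5mC in DCBQ, against 82.6%, 84.2% and 88.9% in Control.

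RARB, the receptor whose promoter holds the element shown above, was partly methylated around its start. The 6 CpGs before the start read 11.4%, 5.13% and 8.72% 5mC in the DCBQ samples, against 10.1%, 16.5% and 8.10% in the Control samples. The 5 CpGs after it read 49.6%, 48.8% and 45.1% in DCBQ, against 50.8%, 51.8% and 46.1% in Control. In both stretches the groups overlapped, and over all 11 CpGs the difference was -2.49 points (SE 1.95, limma adjusted p = 0.884). The CpG nearest the element, 60 bp before the start at chr3 position 25428203, read 0% in each DCBQ sample, against 15.6%, 20% and 8.3% in the Control samples. It had the smallest p for 5mC among member CpGs whose groups were apart and whose means differed by at least 10 points. Its difference was -14.6 points (SE 2.85, limma adjusted p = 0.865). No 5hmC level was listed for it. Among the 11 CpGs it was the one whose groups were apart. It lies in a CCGG, as does the CpG 190 bp before the start, and CCGG is the sequence that MspI cuts, the enzyme commonly used for RRBS. The sources used here do not name the enzyme of these libraries, and the part of the cut site in this value was not tested.

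The 5hmC of the RARB start window, over 10 CpGs, was 6.68%, 6.56% and 6.79% in the DCBQ samples, against 3.19%, 3.96% and 6.04% in the Control samples. All DCBQ samples were higher, by 2.28 points (SE 1.33, limma adjusted p = 0.954). At 0 of the single CpGs were the groups apart, and the close agreement of the DCBQ means came from different CpGs. The 5 CpGs before the start read 9.66%, 7.79% and 0% in DCBQ, against 2.48%, 4.39% and 5.29% in Control. The 5 after it read 3.70%, 5.33% and 13.6% in DCBQ, against 3.90%, 3.52% and 6.78% in Control. Further upstream, the 55 CpGs around the most distal start of RARB averaged 29.0% ± 2.26 5mC in DCBQ and 26.5% ± 1.05 in Control (SD, n = 3 each), with overlap.

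The body of RARB, 90 CpGs, averaged 71.5% ± 0.538 5mC in DCBQ and 72.2% ± 0.93 in Control (SD, n = 3 each), with overlap (difference -0.741 points, SE 0.646, limma adjusted p = 0.759). The 169 CpGs of the span outside window and body read 39.9%, 41.3% and 40.2% in DCBQ, against 39.3%, 39.7% and 39.4% in Control, all DCBQ samples higher. Single CpGs were named per direction, so both directions appear among those of RARB. At position 25453350 5mC was 54.5%, 66.7% and 57.1% in DCBQ, against 100%, 76.9% and 90.9% in Control, and 5hmC there was 45.5%, 22.2% and 42.9% in DCBQ, against 0%, 15.4% and 5.83% in Control. At position 25580190 5mC was 100%, 92.9% and 100% in DCBQ, against 88.2%, 81.2% and 82.4% in Control. At position 25176438 it was 38.9%, 42.9% and 30% in DCBQ, against 21.7%, 0% and 17.6% in Control. By the rule that chose them, the groups did not overlap at any of these CpGs. For 5hmC, position 24949727 read 25%, 12.5% and 25% in DCBQ, against 0% in each Control sample (limma adjusted p = 0.781). The 5mC there spread widely, with 25%, 87.5% and 25% in DCBQ, against 40%, 33.3% and 62.5% in Control, and overlapped. The 5hmC at positions 25307214, 24989077 and 25076241 was lower in every DCBQ sample, by -15.3, -13.9 and -13.1 points.

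RARG, the receptor prominent in skin and other stratified epithelia, was unmethylated at its start. The 38 CpGs there read 1.96%, 2.11% and 1.26% 5mC in the DCBQ samples, against 0.966%, 1.27% and 1.497% in the Control samples, and overlapped (difference 0.535 points, SE 0.279, limma adjusted p = 0.825). All 38 were under 10% in Control. The body of 88 CpGs averaged 32.4% ± 0.511 in DCBQ and 32.5% ± 0.15 in Control (SD, n = 3 each). One stretch of it was apart in both marks. The tile chr12:53223001-53224000, with 10 CpGs, read 84.1%, 88.2% and 85.8% 5mC in DCBQ, against 82.9%, 79.9% and 81.9% in Control (difference 4.47 points, SE 1.45, limma adjusted p = 0.754). Its 5hmC was 1.93%, 1.78% and 1.23% in DCBQ, against 6.51%, 3.69% and 3.98% in Control (difference -3.08 points, SE 1.12, limma adjusted p = 0.974). Within it the CpG at position 53223522 read 66.7%, 75% and 72% 5mC in DCBQ, against 43.5%, 45% and 52.6% in Control. Its 5hmC was 5%, 0% and 0% in DCBQ, against 10.5%, 10% and 10.5% in Control.

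RXRG, a retinoid X receptor known mainly from muscle and nervous tissue, had the largest 5mC difference among the tested start windows of the member genes. The 8 CpGs of its window read 20.1%, 19.9% and 19.4% 5mC in the DCBQ samples, against 16.5%, 15.1% and 15.3% in the Control samples. The groups were apart by 4.14 points (SE 0.535, limma adjusted p = 0.431). The CpGs 221 and 217 bp before the start, capitals in the sequence above, carried it. The first, at chr1 position 165445346, read 61.5%, 53.6% and 50% in DCBQ, against 33.3%, 40% and 26.2% in Control. The second, at position 165445342, read 48.3%, 47.1% and 50.8% in DCBQ, against 39%, 34.8% and 38.8% in Control. The other 6 CpGs averaged 9.10% in DCBQ and 9.09% in Control, and their groups overlapped one by one. Both CpGs are next to each other and can share reads, and the one 221 bp before the start lies in a CCGG, whose part in the value was not tested.

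The 5hmC of the RXRG window was 3.51%, 7.62% and 4.16% in the DCBQ samples, against 5.08%, 8.89% and 8.59% in the Control samples, and overlapped. The tile chr1:165445001-165446000, with 7 CpGs of the window, had a 5mC difference of 5.24 points (SE 0.742, limma adjusted p = 0.706), the smallest p among member tiles with more 5mC in DCBQ. The body of RXRG held 8 CpGs and averaged 52.5% ± 1.47 5mC in DCBQ and 53.1% ± 5.61 in Control (SD, n = 3 each). The plot of single CpGs sets the 2 CpGs of RXRG beside those of ALDH1A3 and RARB.

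**Figure D3:**
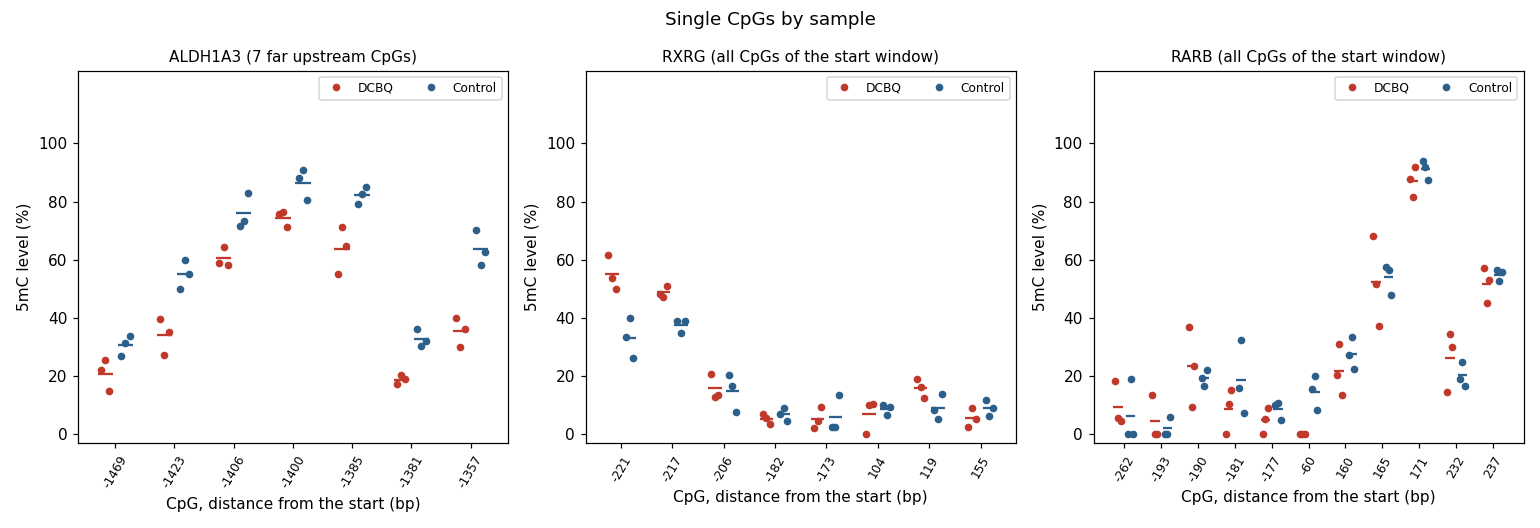
5mC level (%) by sample at single CpGs, placed by distance from the start (bp), for the upstream block of ALDH1A3 and the start windows of RXRG and RARB; points are 3 DCBQ and 3 Control samples, short lines their means. The groups are apart at 7 of 7 CpGs of ALDH1A3 (lower in DCBQ), at 221 and 217 bp before the RXRG start (higher in DCBQ), and at 60 bp before the RARB start, where each DCBQ sample reads 0%.

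RXRA, the retinoid X receptor that most tissues express, held 1311 of the 2579 member CpGs of the 5mC table and had an unmethylated start and a highly methylated body. Its 203 start CpGs read 1.57%, 1.72% and 1.83% 5mC in the DCBQ samples, against 1.83%, 1.78% and 1.58% in the Control samples, and overlapped (difference -0.0238 points, SE 0.173, limma adjusted p = 0.99). Of these, 197 were under 10% in Control. Its body of 1104 CpGs read 77.9%, 77.9% and 77.6% in DCBQ, against 79.1%, 78.9% and 78.9% in Control. The groups were apart by -1.14 points (SE 0.413, limma adjusted p = 0.583), with 628 CpGs lower and 443 higher in DCBQ by their means. Over all CpGs tested for 5mC, 53.2% were lower and 46.8% higher in DCBQ, and of all tested bodies 69.4% were lower. The 5hmC of the body was 3.24%, 3.56% and 3.73% in DCBQ, against 3.22%, 3.19% and 3.04% in Control, apart by 0.362 points (SE 0.378, limma adjusted p = 0.997).

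The mean 5mC was lower in DCBQ in each 20 kb stretch of the RXRA body. In stretches of 20 kb counted from the start, the groups were apart from 20 to 40 kb (-1.56 points), from 40 to 60 kb (-1.998 points) and from 60 to 80 kb (-0.961 points). They overlapped from 0 to 20 kb (-0.796 points), from 80 to 100 kb (-0.727 points) and from 100 to 120 kb (-0.544 points). Over all CpGs of the 5mC table the groups were also apart, by -0.416 points. Whether the stretches differ from each other was not tested, and how often such stretches are apart over all genes was not computed. The window around the second listed start, with 19 CpGs inside the body, read 40.3%, 39.5% and 40.3% in DCBQ, against 43.3%, 45.7% and 46.1% in Control. For 5hmC the stretch from 40 to 60 kb was apart, by 0.446 points.

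Over 1 kb tiles, limma called 0 (0%) of 210424 for 5mC, and 13041 (6.2%) had an unadjusted p under 0.05. Of the 134 member tiles 12 (8.96%) did. The groups were apart in 26 member tiles (19.4%), against 11.5% of all tiles. They were apart and lower in DCBQ in 21 member tiles (15.7%), against 8.11% of all tiles, and higher in 5 (3.73%), against 3.38%. RXRA held 18 of those 21 lower tiles among its own 78 tiles, which share 1 gene and are not replicates. The tile chr9:134374001-134375000 read 79.1%, 72.6% and 75.7% 5mC in the DCBQ samples, against 84.0%, 85.2% and 82.3% in the Control samples (difference -8.02 points, SE 1.88, limma adjusted p = 0.718). Its 5hmC was 8.36%, 10.9% and 8.75% in DCBQ, against 4.19%, 3.17% and 4.10% in Control (difference 5.50 points, SE 1.87, limma adjusted p = 0.974). This tile had the smallest p for 5hmC among all member tiles, and its groups were apart in both marks.

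The tile chr9:134356001-134357000 of RXRA read 33.0%, 27.2% and 27.9% 5mC in DCBQ, against 36.4%, 37.8% and 45.7% in Control, with overlap in 5hmC. The tile chr9:134381001-134382000 differed by -3.37 points of 5mC (SE 1.07). One tile, chr9:134366001-134367000, went the other way, with 66.0%, 63.5% and 65.2% 5mC in DCBQ, against 56.3%, 59.9% and 56.5% in Control (difference 7.34 points, SE 2.04, limma adjusted p = 0.73). Its 5hmC was 8.65%, 11.9% and 8.62% in DCBQ, against 17.6%, 12.03% and 12.99% in Control. Just behind the start, the tile chr9:134327001-134328000 of 33 CpGs read 1.05%, 1.10% and 1.04% 5hmC in DCBQ, against 0.559%, 0.505% and 0.524% in Control. These values were tight within each group and near 0, and the limma adjusted p was 0.974.

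For 5hmC over 1 kb tiles, limma called 0 (0%) of 201896, and 9747 (4.83%) had an unadjusted p under 0.05. Of the 131 member tiles 4 (3.05%) did. The groups were apart in 15 member tiles (11.5%), against 9.94% of all tiles. Of these 15, 10 were higher in DCBQ (7.63%), against 5.55% of all tiles, and 5 were lower (3.82%), against 4.39%. The 3 RXRA tiles with the smallest p for less 5hmC in DCBQ began at positions 134424001, 134431001 and 134403001, and their groups overlapped. Their differences were -2.34, -0.704 and -3.10 points.

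**Figure D4:**
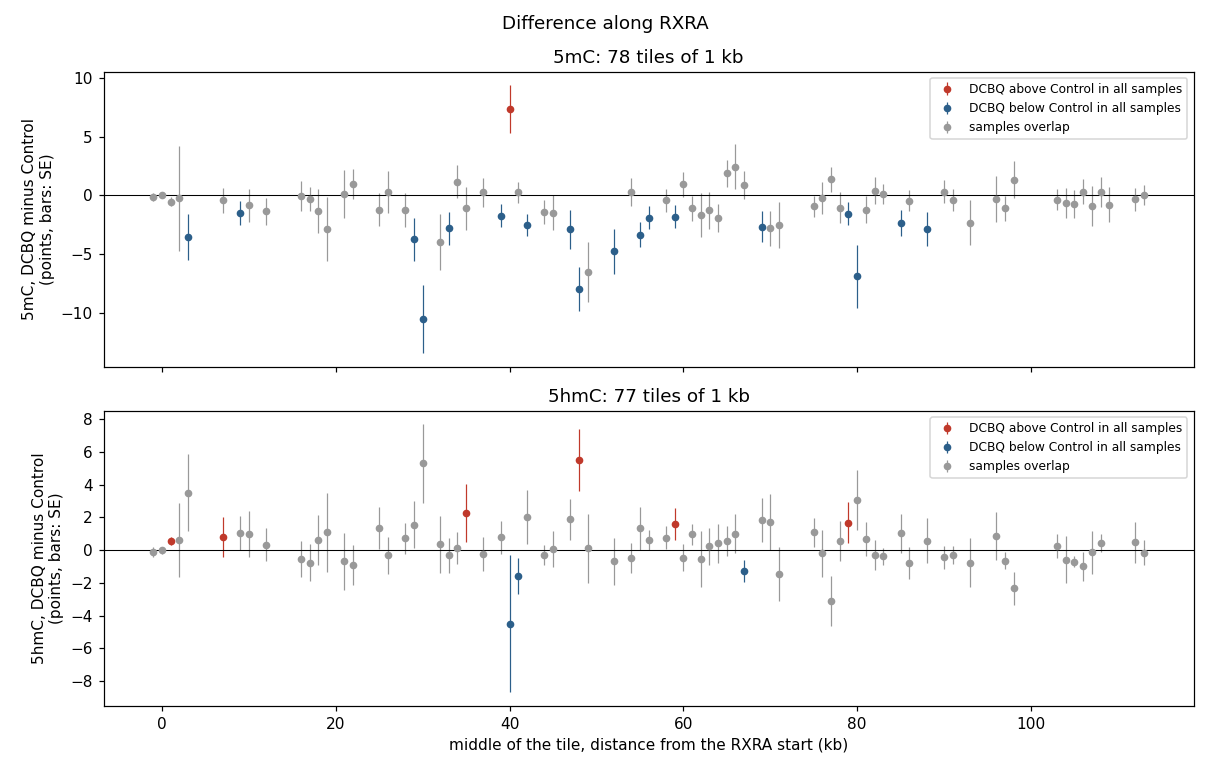
Difference in 5mC (top) and 5hmC (bottom), DCBQ minus Control in percentage points with SE bars from limma, for 1 kb tiles along RXRA by distance from its start (kb). Of 78 tiles for 5mC 18 lie below 0 and 1 above 0 with no overlap of samples, and no tile passed the adjusted p of 0.05.

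At single CpGs, limma called 0 (0%) of 3419211 for 5mC and 3 (9.51e-05%) of 3153081 for 5hmC, with 0 of them in the member genes. An unadjusted p under 0.05 was found for 4.69% of all CpGs and 132 of 2414 member CpGs (5.47%) for 5mC. For 5hmC it was found for 1.98% of all CpGs and 25 of 2274 member CpGs (1.10%). CpGs with groups apart and means at least 10 points apart were counted by direction. For 5mC, 31 member CpGs (1.28%) were higher in DCBQ, against 1.2% of all CpGs, and 50 (2.07%) were lower, against 1.79%. For 5hmC, 21 (0.923%) were higher, against 0.812%, and 7 (0.308%) were lower, against 0.726%. The share with lower 5hmC was below that over all CpGs, and this difference was not tested.

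The CpGs with the smallest p were named per direction, so both directions appear among those in the body of RXRA. At position 134373926 5mC was 84.2%, 77.8% and 83.3% in DCBQ, against 94.4%, 92.9% and 100% in Control. At position 134356619 it was 0%, 14.3% and 0% in DCBQ, against 30%, 16.7% and 33.3% in Control. At position 134426049 it was 88.9%, 100% and 80% in DCBQ, against 66.7%, 57.1% and 71.4% in Control. By the rule that chose them, the groups did not overlap at any of these. For 5hmC, positions 134396739 and 134374107 read 0% in each Control sample. In DCBQ the first read 25%, 7.69% and 7.69% and the second 4%, 17.6% and 11.1%. Positions 134367747 and 134378843 had less 5hmC in every DCBQ sample, by -10.3 and -10.1 points.

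Across the member CpGs in both tables, the mean 5hmC level was highest at intermediate 5mC. The 843 CpGs under 10% 5mC in Control averaged 1.20% ± 0.0503 5hmC in DCBQ and 1.14% ± 0.0811 in Control (SD, n = 3 each). The 680 CpGs from 10% to 80% averaged 6.11% ± 0.112 in DCBQ and 6.04% ± 0.341 in Control. The 1001 CpGs at 80% or more averaged 3.01% ± 0.18 in DCBQ and 2.43% ± 0.206 in Control, with every DCBQ sample higher. The classes were made from the Control 5mC, which shares samples with the Control 5hmC, so this is a description. The 5hmC values stop at 0, where 53.0% of the member values lay, and 5mC of 80% or more leaves little room for 5hmC. The part of these limits in the levels of the classes was not tested. Picking CpGs by high Control 5mC can lower their Control 5hmC and leave that of DCBQ free. The difference between the groups in the class at 80% or more cannot be told apart from this choice of CpGs. Of the 2524 CpGs in both tables, 841 had lower 5mC with higher 5hmC in DCBQ by their means and 707 the reverse. A smaller number differed the same way in both marks, 287 higher and 349 lower.

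The other genes of the pathway were taken from a list of 38, of which 28 were in the gene table. The list covers vitamin A uptake and storage, retinol oxidation, carriers, the CYP26 enzymes that degrade retinoic acid, co-regulators and target genes. For 5mC, 17 start windows and 24 bodies were tested, and 0 passed the adjusted p in either. An unadjusted p under 0.05 was found for 3 of the 17 windows and 3 of the 24 bodies, against 6.68% and 8.31% of all. The median difference was 0.037 points at starts and -0.562 points in bodies, against -0.0899 and -0.392 points over all genes. For 5hmC 0 passed in either. There, 2 of 17 windows and 1 of 24 bodies had an unadjusted p under 0.05, against 4.82% and 5.35% of all. The medians were -0.193 and -0.0581 points, against 0.0282 and 0.0882 points over all genes.

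The list gene with the smallest p was NRIP1, a co-repressor that binds retinoid receptors, with 0.856%, 0.444% and 0.422% 5mC at its start in DCBQ, against 2.68%, 1.60% and 1.72% in Control. Its 5hmC there was 1.91%, 3.50% and 2.09% in DCBQ, against 0%, 0.829% and 1.39% in Control. The NRIP1 window held 9 CpGs, and its levels were low in both marks. CYP26B1, a degrading enzyme, had 56.9%, 56.4% and 56.9% 5mC in its body in DCBQ, against 58.1%, 57.4% and 58.1% in Control. At the starts of the retinoid-induced genes RARRES1 and RARRES2 the 5mC differences were -1.66 and 2.62 points, with groups apart in both. STRA6, the membrane receptor for retinol uptake, differed by -3.87 points of 5mC in its body, with overlap, and by 1.99 points of 5hmC. LRAT, which esterifies retinol for storage, differed by 5.88 points of 5mC in its body, with overlap. RDH11, a retinal reductase, differed by -0.703 points of 5hmC at its start, where 9 CpGs averaged 0.368% in DCBQ and 1.07% in Control. The adjusted p of these 9 differences lay between 0.532 and 0.954 in limma.

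The gene most like each member was found by its levels. Over 24 levels (start and body, 2 marks, 6 samples) and 10819 genes with both regions measured, the nearest gene by Euclidean distance was taken for the 7 members that could be placed. It was CCDC57 for RXRA at a distance of 1.82 points, QSER1 for RARG at 2.76 and DENND4B for ALDH1A3 at 3.60. For ALDH1A2 it was ATP2B3 at 5.60, for RARB TTC28 at 9.92, for RXRG PDE4B at 12.2 and for CRABP1 CACNG3 at 13.5.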

How the data were processed

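5mC and 5hmC were measured in SV-HUC-1 cells by RRBS and oxRRBS, and the levels per CpG were deposited by the authors as a fraction from 0 to 1, in 1 table per mark with 3 DCBQ and 3 Control columns. Among the tools were BSMAP 2.90, cutadapt and Trim Galore, with the hg38 build, per the submitters' processing notes. Per the tables' names, CpGs had at least 5 reads and strands were merged. The sources used here do not say how the libraries were combined into 5mC and 5hmC.

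Fractions were turned into percent. Gene spans and starts came from RefSeq (GRCh38.p14), with the start listed first for each of 15842 protein-coding genes. A CpG's position is that of the C on the plus strand, and its distance from the start is that of the C on the gene's strand. Window, body and tile means (at least 5 CpGs) and single CpGs were fitted with limma 3.58.1 (lmFit, eBayes with trend) in R 4.3.3, after a test on simulated data. P-values were adjusted by Benjamini-Hochberg over all features of a table. Tables and figures were made with pandas 2.3.3, matplotlib 3.10.9 and numpy 2.4.6 in Python 3.11.15. The 9 genes, the lists and the rules were chosen with earlier results of these data known. Named CpGs were, per mark and direction, at most 6 with the smallest p among those apart and 10 points or more different. Named tiles were the 4 with the smallest p per mark and direction, and named list genes those with an unadjusted p under 0.05. Other CpGs in the text (the blocks of ALDH1A3 and RXRG, the 4 CpGs of ALDH1A1) were chosen after their values were seen. Stretches set within a start window, and the 20 kb stretches of RXRA, were described without a test. Their share apart over all genes was not computed. Alternatives left out each sample, added the replicate number as a block, dropped the trend, used an arcsine square root scale, at least 10 CpGs, CpGs in both tables, 500 bp windows or tiles, and no minimum difference.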

Additional observations from a re-analysis of the deposited data

How the results depend on the processing

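No member passed an adjusted p of 0.05 under any alternative run. Of 749 recomputed single values in 70 results, 720 kept direction and side of the threshold and 29 changed sign, in 13 results. Over all features, 5hmC at starts gave 1 call with the arcsine scale and 0 to 1 with 1 sample left out. The 3 calls of 5hmC at single CpGs became 0 with the replicate block, without the trend, on the arcsine scale, and with any 1 sample left out (0 to 0). No other count of calls moved. With CpGs in both tables, the 5mC differences became -0.0289 points for the RARA body, 0.495 for the RXRG body and 0.0347 for the RXRA start, which also became 0.0308 with the 500 bp window. The 5hmC of the RARG start became -0.000626 on the arcsine scale. Cause was not tested for any of these.

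With 1 sample left out, differences in 5mC ranged from -0.189 to 0.931 for the ALDH1A2 start, -0.101 to 0.0428 for the RXRA start, -0.792 to 0.0272 for the ALDH1A3 body, -2.40 to 1.92 for the CRABP1 body, -0.0649 to 0.179 for the RARA body, -0.26 to 0.209 for the RARG body and -3.60 to 1.97 for the RXRG body. Those in 5hmC ranged from -0.35 to 0.219 for the RARG start, -0.151 to 0.0108 for the RXRA start, -0.166 to 0.488 for the ALDH1A3 body, -0.22 to 0.111 for the RARA body, -0.748 to 0.0377 for the RARG body and -2.01 to 0.155 for the RXRG body.

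Same-numbered DCBQ and Control samples did not deviate together (correlations of deviations between -0.034 and 0.006 for 5mC and between -0.035 and 0.009 for 5hmC), so the numbers were not taken as pairs. The block changed no other call. The depth behind each CpG is unknown, which limits the precision that can be stated for single CpGs in both marks.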
